A study of Mus musculus with 6 samples.

Results

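The genes described here are 9 genes of the tricarboxylic acid (TCA) cycle in mouse liver, Cs, Idh3a, Idh3b, Idh3g, Ogdh, Dlst, Suclg1, Fh1 and Mdh2. They were chosen by name, and each of the 9 names matched 1 of the 20673 genes in the deposited tables. RNA sequencing was done on livers of adult C57BL/6J mice, a widely used inbred strain, and 3 livers were from a regular diet (RD) group and 3 from a group given a cholesterol-rich diet (HCD) over 3 days. The HCD also held sodium cholate and cocoa butter, so the diets differed by more than cholesterol. No genetic change and no infection was part of these 6 samples, and whole liver was sequenced in each case. The labels number the livers but name no cage or litter, so the p-values measure the spread between these livers only. Library names follow a different scheme in each diet group. What the schemes stand for is not stated, and anything that went with them cannot be told apart from diet.

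The TCA cycle runs in the mitochondrial matrix, where it oxidizes acetyl-CoA to carbon dioxide and passes the electrons to NAD and FAD. The respiratory chain takes the electrons from these carriers, and succinate dehydrogenase is both an enzyme of the cycle and complex II of the chain. In liver the cycle also supplies carbon for glucose, fatty acid and amino acid synthesis. The study reported its liver data with the respiratory chain at the center, and the question addressed here is whether genes of the cycle moved with those of the chain.

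The RD livers had 13771630 to 23129576 counted reads and the HCD livers 13935491 to 18545549, and a gene with no read could have a level of up to 0.130 to 0.218 CPM (counts scaled to a common library size), a limit for counting error only. Among 13105 genes with enough reads to test, 428 differed between diets, 255 higher and 173 lower with HCD, which is 3.27% of the genes tested (edgeR quasi-likelihood test, Benjamini-Hochberg adjusted p below 0.05). A gene that passes this test is called changed below. Library HCD replicate 1 stood apart: it had 5032 reads of Xist, the RNA that silences an X chromosome in females, against 0 in every other liver, and 0 reads of the Y-linked genes Ddx3y, Eif2s3y, Kdm5d and Uty, each of which had reads in the other 5. The labels give no sex, and the study used both. Values without this liver are given beside several of the results.

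All 9 genes passed the filter on low counts, and none was called changed. Before adjustment 1 of the 9, Idh3g, passed 0.05, and it was higher with HCD. Of all genes tested 20.9% did so, 11.1% higher and 9.81% lower. DESeq2 called 0 of the 9, against 7.2% of the genes it tested, 4.01% of them higher. The median log2 fold change of the 9 (HCD over RD) was 0.04, with 5 genes above 0 and 4 below, against 0.01 for all genes tested. In whole liver, fewer cells of a type and less RNA per cell cannot be told apart. Individual genes ranged from -0.36 for Fh1 to 0.39 for Idh3g. For 3 of the 9 the livers of the diets were fully apart (27.6% of genes tested), with 1 gene higher under HCD (14.0% of genes tested) and 2 lower (13.7%).

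The promoter sequences of the member that was highest (Idh3g), the member that was lowest (Fh1) and the enzyme that opens the cycle (Cs) are shown, to set the ends of that range beside the entry step. They come from RefSeq on GRCm38.p6, run 5′ to 3′ on the strand of the gene, and leave out bases that lie in exons of any gene. Capitals mark CCGGAAG, the core of the site bound by GABPA, a factor of many mitochondrial genes.
Idh3g, chrX:73786898-73787027, minus strand: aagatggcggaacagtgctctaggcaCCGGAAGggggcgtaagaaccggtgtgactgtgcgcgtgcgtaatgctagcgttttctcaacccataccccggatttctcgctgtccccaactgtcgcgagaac
Fh1, chr1:175625636-175625885, minus strand: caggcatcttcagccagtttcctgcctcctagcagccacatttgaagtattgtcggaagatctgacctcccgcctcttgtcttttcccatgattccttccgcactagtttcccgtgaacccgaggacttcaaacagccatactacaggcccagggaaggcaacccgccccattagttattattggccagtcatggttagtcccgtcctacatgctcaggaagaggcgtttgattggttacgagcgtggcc
Cs, chr10:128337477-128337726, plus strand: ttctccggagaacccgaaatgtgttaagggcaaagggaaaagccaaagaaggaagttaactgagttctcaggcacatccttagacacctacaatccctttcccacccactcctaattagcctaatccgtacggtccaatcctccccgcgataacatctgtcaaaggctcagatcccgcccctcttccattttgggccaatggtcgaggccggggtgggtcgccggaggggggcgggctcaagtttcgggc
The upstream side of Idh3g runs into exons of Ssr4, which starts in the other direction, so only 130 bases are shown there. Ssr4, which encodes a subunit of the translocon-associated complex and was named here after its values were seen, stood at a log2 fold change of 0.13 (SE 0.16, adjusted p = 0.680), and its diets overlapped. With a liver left out it was -0.03 to 0.25.

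The RefSeq promoter table used here held 8 of the 9 genes, and the promoter of Idh3a was not analysed here. In a 300-base window, from 250 bases before the start to 50 after it, CCGGAAG on either strand was found in 3 of the 8 (37.5%), which were Idh3b, Idh3g and Dlst. It was found in 22.2% of 63 respiratory chain promoters and 19.8% of 9776 promoters of genes tested. The motif of NRF1, another such factor, was in 0 of the 8, but in 4 of the 6 promoters held for other cycle enzymes (66.7%), and in 23.8% of the respiratory chain promoters and 11.4% of those of genes tested. The ESRRA motif TCAAGGTCA was also in 0 of the 8, against 1 of the 6 for other cycle enzymes (16.7%), 1.59% of the respiratory chain and 0.348% of genes tested. A match describes letters in a window and is not evidence of binding, and the absence of a match says only that these letters are not in it.

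Citrate synthase, encoded by Cs (ENSMUSG00000005683, chr10:128337734-128362479), joins acetyl-CoA and oxaloacetate. Gene positions here are those of the GENCODE M21 annotation on GRCm38. Its level was 138, 127 and 115 CPM (scaled with TMM-adjusted library sizes) in the RD livers and 126, 120 and 145 CPM in the HCD livers. The diets overlapped, and the means were 126 ± 11.6 and 130 ± 13.3 CPM (SD, n = 3 each). The log2 fold change was 0.04 (SE 0.14, 95% interval -0.27 to 0.36, adjusted p = 0.885). A processed pseudogene of Cs, Gm48254, shares 469 bases at 92.1% identity and had a mean of 1.0 read per liver.

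**Figure D1:**
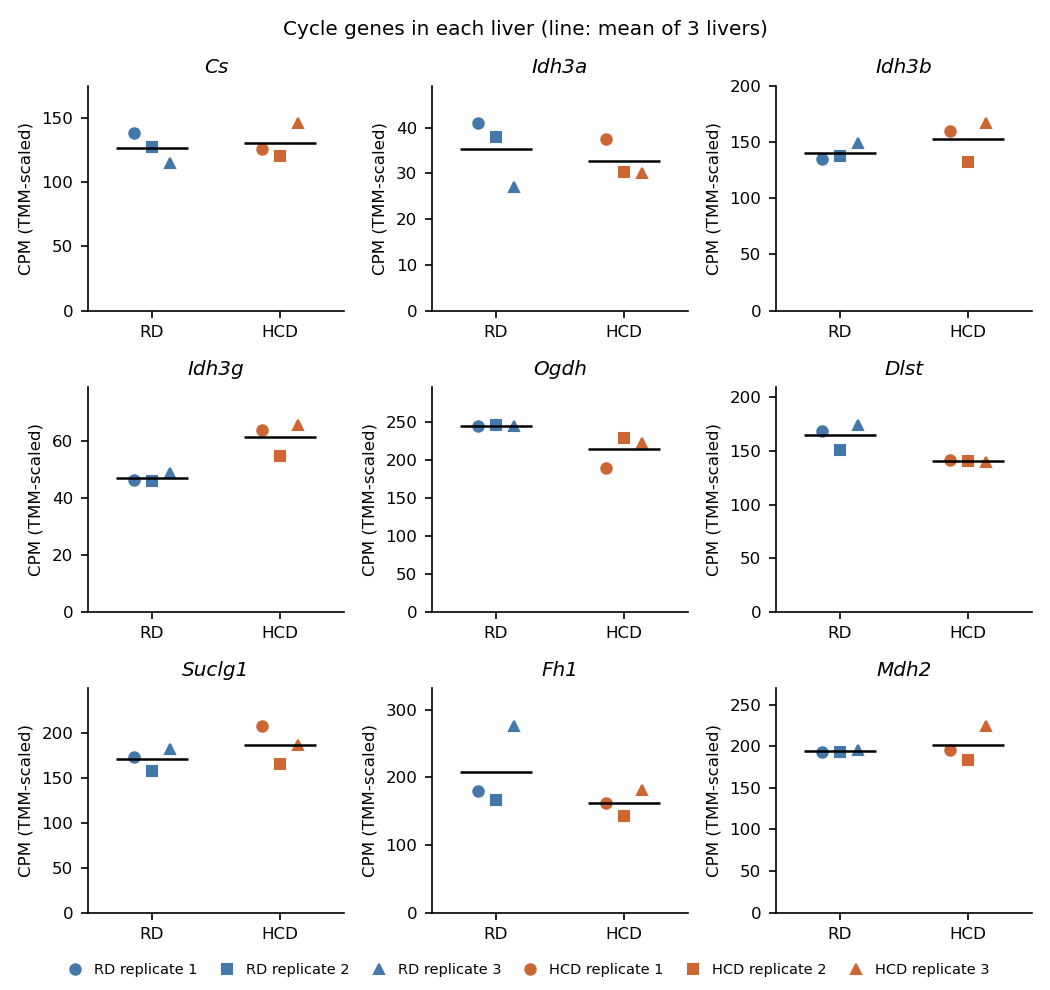
Level of each of the 9 TCA cycle genes in CPM (TMM-scaled, linear axis from 0) in each liver, with diet on the horizontal axis, points for livers and a line for the mean of 3. The Idh3g points with HCD, at 54.9 to 65.9 CPM, sit above all RD points, while those of Ogdh and Dlst sit below them and the other 6 genes overlap between diets.

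The NAD-dependent isocitrate dehydrogenase has a catalytic subunit, Idh3a, and regulatory subunits, Idh3b and Idh3g, and is regulated by ADP and calcium. Idh3g (ENSMUSG00000002010, chrX:73778963-73786897) was 46.3, 46.1 and 48.9 CPM with RD and 63.9, 54.9 and 65.9 CPM with HCD. Every HCD liver was above every RD liver, and the means were 47.1 ± 1.58 and 61.6 ± 5.87 CPM (SD, n = 3 each). The fold was 1.31 (log2 fold change 0.39, SE 0.13, 95% interval 0.10 to 0.67). It did not pass the test after adjustment (p = 0.0142 and adjusted p = 0.134 in edgeR's test, DESeq2 adjusted p = 0.208), and the exact two-sided permutation p over the livers was 0.1, the smallest that 3 against 3 allow. The estimate lay between 0.33 and 0.46 when any 1 liver was left out, and was 0.36 without HCD replicate 1, the liver with Xist reads.

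Idh3a (ENSMUSG00000032279, chr9:54586334-54604661), the catalytic subunit, was 40.9, 38.0 and 27.0 CPM with RD and 37.6, 30.3 and 30.2 CPM with HCD. RD replicate 3 was the lowest of the 6 livers and the diets overlapped (log2 fold change -0.11, SE 0.19, 95% interval -0.53 to 0.32, adjusted p = 0.781). It was -0.22 without HCD replicate 1 and -0.27 without RD replicate 3. Idh3b (ENSMUSG00000027406, chr2:130279309-130284547), a regulatory subunit, was 136, 138 and 149 CPM with RD and 161, 132 and 167 CPM with HCD. These also overlapped (log2 fold change 0.12, SE 0.14, 95% interval -0.19 to 0.44, adjusted p = 0.658), and the value was 0.05 without HCD replicate 3 and 0.21 without HCD replicate 2. Exons of Idh3b share 5 bases with Nop56 on the opposite strand.

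The 2-oxoglutarate dehydrogenase complex makes succinyl-CoA. Its dehydrogenase, Ogdh (ENSMUSG00000020456, chr11:6291633-6356642), was 244, 246 and 244 CPM with RD and 189, 229 and 222 CPM with HCD. The HCD livers were all lower, HCD replicate 1 the most (means 245 ± 1.15 and 213 ± 21.4 CPM, SD, n = 3 each), and the difference did not pass the test (log2 fold change -0.20, SE 0.14, 95% interval -0.51 to 0.11, adjusted p = 0.439). It was -0.12 without HCD replicate 1. Dlst (ENSMUSG00000004789, chr12:85110833-85134845), the succinyltransferase of the complex, was 169, 151 and 175 CPM with RD and 142, 141 and 140 CPM with HCD. Here the HCD livers again lay below all RD livers and were close to each other (means 165 ± 12.3 and 141 ± 0.962 CPM, SD, n = 3 each). The log2 fold change was -0.23 (SE 0.12, 95% interval -0.51 to 0.05, adjusted p = 0.334). With a length trend removed from the counts it was -0.10 for Dlst and -0.12 for Ogdh. The exact two-sided permutation p was 0.1 for Ogdh and for Dlst, the smallest this design allows.

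Succinyl-CoA ligase makes GTP or ATP from succinyl-CoA, and Suclg1 (ENSMUSG00000052738, chr6:73248382-73276911) encodes the alpha subunit that both forms share. It was 173, 158 and 182 CPM with RD and 208, 165 and 186 CPM with HCD. The diets overlapped (log2 fold change 0.12, SE 0.14, 95% interval -0.20 to 0.45, adjusted p = 0.660), and the log2 fold change was 0.04 without HCD replicate 1.

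Fumarase, Fh1 (ENSMUSG00000026526, chr1:175600374-175625635), hydrates fumarate to malate. It was 180, 167 and 277 CPM with RD and 162, 143 and 181 CPM with HCD. RD replicate 3 stood far above the other 5 livers, which overlapped between diets (means 208 ± 60.0 and 162 ± 18.9 CPM, SD, n = 3 each). The log2 fold change of -0.36 (SE 0.21, 95% interval -0.84 to 0.12, adjusted p = 0.371) became -0.10 without that liver. Malate dehydrogenase, Mdh2 (ENSMUSG00000019179, chr5:135778480-135790398), closes the cycle by making oxaloacetate. It was 193, 193 and 195 CPM with RD and 196, 184 and 225 CPM with HCD, and the diets overlapped (log2 fold change 0.06, SE 0.13, 95% interval -0.25 to 0.36, adjusted p = 0.847).

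The other 8 genes of the cycle enzymes gave a like picture: none was called by edgeR or DESeq2, the median log2 fold change was 0.08, and 4 were above 0 and 4 below. Sucla2, the ATP-forming beta subunit of succinyl-CoA ligase, was 113, 95.8 and 115 CPM with RD and 147, 133 and 130 CPM with HCD. The HCD livers were all higher (log2 fold change 0.34, SE 0.13, unadjusted p = 0.0311 and adjusted p = 0.192 in edgeR's test). Sdhb, the iron-sulfur subunit of succinate dehydrogenase, stood at 0.45 on the same scale (adjusted p = 0.246), with HCD replicate 3 at 309 CPM and the other 5 livers at 155 to 210 CPM, and it was 0.21 without that liver. Sdha, the flavoprotein subunit, was 479, 463 and 488 CPM with RD and 422, 355 and 375 CPM with HCD, so its diets did not overlap in the direction of lower HCD (log2 fold change -0.31, adjusted p = 0.251). Suclg2, the GTP-forming beta subunit, had 0.23 (adjusted p = 0.467, and 0.10 without HCD replicate 1), Sdhc 0.16 (0.553), Dld, the lipoamide dehydrogenase, -0.01 (0.966) and Sdhd -0.05 (0.913). With a liver left out Sdhc was 0.07 to 0.26, Dld -0.09 to 0.02 and Sdhd -0.24 to 0.10. Over all 17 genes of the cycle the median was 0.04, and 9 were above 0 and 8 below.

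The nuclear genes of respiratory complexes I, III, IV and ATP synthase (complex V) were the comparison, 74 genes in all, with complex II left to the cycle. The study's RNA evidence on such genes came from these same livers, so their rise here is not independent of it. The study also used Western blots of chain complexes after sepsis was induced, and survival with rotenone, which are not analysed here. Their median log2 fold change was 0.45, with 66 above 0 and 8 below. edgeR called 16 of the 74 higher (1.95% of all genes tested) and 0 lower, while before adjustment 42 higher and 1 lower genes passed 0.05, and DESeq2 called 26 higher and 0 lower. The call count rested on the livers used: 0 of the 74 were called without RD replicate 1 or RD replicate 2, 2 without RD replicate 3 or HCD replicate 3, and 9 without HCD replicate 1, while their median stayed between 0.38 and 0.52.

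**Figure D2:**
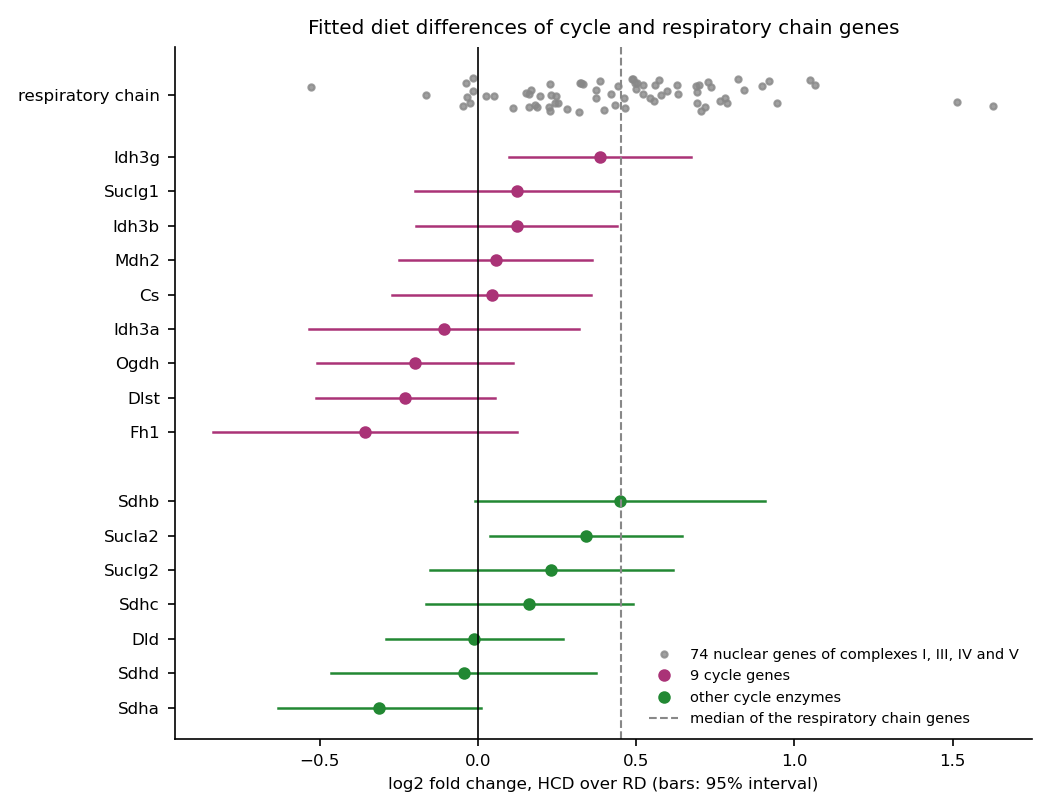
Fitted log2 fold change (HCD over RD) with its 95% interval for the 9 TCA cycle genes and other named cycle enzymes, and the estimates of 74 nuclear respiratory chain genes at the top, with a dashed line at their median. Of the 9 intervals 8 lie below that median of 0.45, and that of Idh3g, from 0.10 to 0.67, includes it.

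The cycle genes had a lower median than the chain genes. The median of the 9 genes was 0.41 lower on the log2 scale than that of the 74. Of the 9 genes, 8 had a 95% interval that ended below the median of the chain, and for Suclg1 the bound of 0.45 was just below it. Idh3g was the exception, since its interval included the median and 42 of the 74 chain genes were above it. Of the other 8 genes, 63 to 73 of the 74 chain genes were above each. Among the other cycle enzymes 4 of 8 intervals lay below the median of the chain and 4 included it. Of the 74 chain genes themselves, 12 had an interval below that median. The interval treats the median of the chain as fixed, and the count of 8 depended on the fit. With each fit's own intervals and chain median it was 3 with a length trend removed, 6 with library sizes alone, and 3 (without RD replicate 2) to 7 (without HCD replicate 1) with a liver left out.

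Within a liver the same gap can be read as the median deviation of the 9 genes from their own mean of 6 livers, minus that of the 74. It was 0.19, 0.27 and 0.14 in the RD livers and -0.27, -0.16 and -0.26 in the HCD livers (log2 scale). The opposite signs of the diets follow from centering each gene on its own mean. For the 9 genes the median deviation was -0.01, -0.03 and 0.03 with RD and -0.01, -0.11 and 0.07 with HCD, and the diets overlapped. Single genes were spread more widely, from -0.33 (Fh1 in HCD replicate 2) to 0.61 (Fh1 in RD replicate 3), and moved in both directions. For the chain genes the median was -0.20, -0.31 and -0.11 with RD and 0.26, 0.05 and 0.32 with HCD, and the diets did not overlap. The summed level of the 9 genes was 1264 to 1413 CPM with RD and 1199 to 1363 CPM with HCD, and that of the 74 was 9194 to 10263 and 11045 to 13273 CPM.

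**Figure D3:**
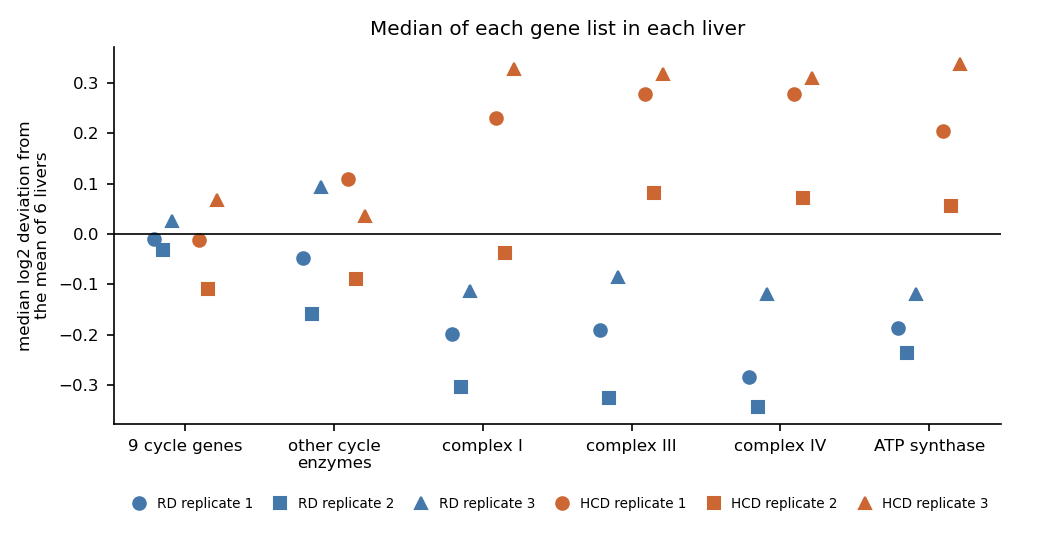
Median log2 deviation of each gene list from the mean of its genes over 6 livers (vertical axis), by list (horizontal axis), with a point for each liver colored by diet. The medians of the 9 cycle genes lie between -0.11 and 0.07, while the HCD points of complexes I, III and IV and ATP synthase all lie above their RD points.

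Split by complex, the medians were 0.46 for complex I (37 genes, 6 called), 0.42 for complex III (9 genes, 2 called), 0.50 for complex IV (13 genes, 3 called) and 0.33 for ATP synthase (15 genes, 5 called). All of these medians were above that of the 9 cycle genes. The largest called rise in each complex was Ndufb2 (complex I, log2 fold change 1.51, SE 0.19, adjusted p = 0.00948), Uqcr10 (complex III, 0.79, SE 0.12, adjusted p = 0.0184), Ndufa4 (complex IV, 0.73, SE 0.13, adjusted p = 0.0283) and Atp5h (ATP synthase, 1.07, SE 0.18, adjusted p = 0.0237). All 4 lost the call without RD replicate 1 or without RD replicate 2, with adjusted p of 0.0512 to 0.157. Uqcr10, Ndufa4 and Atp5h also lost it without RD replicate 3 or HCD replicate 3, and Uqcr10 and Ndufa4 with the length trend removed (adjusted p = 0.106 and 0.0773). The 13 chain genes of mitochondrial DNA had a median of 0.28, and edgeR called 0 of them, although before adjustment 2 higher and 1 lower ones passed 0.05, and DESeq2 called 2 higher. Their median deviation was -0.13, -0.12 and -0.29 with RD and -0.22, 0.03 and 0.53 with HCD, so HCD replicate 1 lay within the RD range and HCD replicate 3 stood highest. With a length trend removed their median log2 fold change was 0.07.

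The cycle genes are long beside the chain genes, with a median summed exon length of 4617 bp against 1631 bp. With a length trend removed from the counts the median was 0.06 for the 9 genes and 0.31 for the 74, and the gap was -0.24, with 6 of the 74 called in place of 16. The chain genes at least as long as Idh3g, the shortest of the 9 at 2701 bp, were 18, and their median was 0.47 with 17 above 0 and 6 called. The 56 shorter ones had a median of 0.45 with 10 called. The gap against the long ones alone was -0.42 (this comparison was chosen after seeing the lengths).

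**Figure D4:**
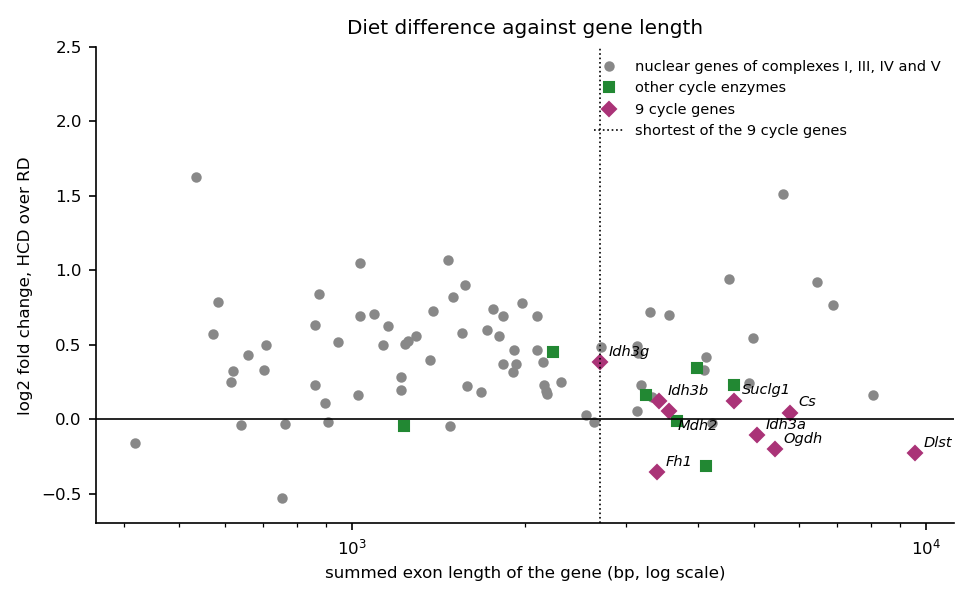
Log2 fold change (HCD over RD) against summed exon length in bp (log scale) for the 9 TCA cycle genes, other named cycle enzymes and 74 nuclear respiratory chain genes, with a dotted line at the shortest of the 9, 2701 bp. To the right of the line 17 of 18 chain genes lie above 0, while 4 of the 9 cycle genes lie below it.

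Levels per length (FPKM, fragments scaled by exon length and library size) placed Mdh2 highest at 81.7 ± 6.95 (mean and SD over 6 livers), then Fh1 at 80.5 ± 21.3, Idh3b at 63.4 ± 7.41, Ogdh at 61.8 ± 5.27 and Suclg1 at 57.1 ± 6.84. Cs followed at 32.7 ± 3.07, Idh3g at 29.7 ± 5.29, Dlst at 23.5 ± 2.40 and Idh3a at 9.86 ± 1.55. The catalytic subunit of isocitrate dehydrogenase thus had the lowest level of the 9. The order of the means was not the same in each diet. With RD the mean of Fh1 (89.8 FPKM) was above that of Mdh2 (79.5 FPKM), and Ogdh (65.6 FPKM) was above Idh3b (60.2 FPKM). With HCD Suclg1 (60.0 FPKM) was above Ogdh (58.0 FPKM), and Idh3g (33.9 FPKM) above Cs (33.5 FPKM). Of neighbors in this order, Fh1 was above Idh3b, Suclg1 above Cs and Dlst above Idh3a in 6 of 6 livers (exact two-sided sign-flip p = 0.0312, the smallest possible, and 0.0833 adjusted over 8 pairs). The other 5 neighbor pairs changed order in at least 1 liver, with exact p of 0.125 to 0.812, and Idh3b was above Ogdh in 2 of 6 livers. The pairs were taken from the order of these same values, and the 6 livers hold both diets. These p-values therefore describe the order and cannot test it.

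Ratios between subunits of 1 enzyme were compared within each liver on the log2 FPKM scale, 6 ratios in all. Idh3b over Idh3g was 1.21, 1.24 and 1.27 with RD and 0.99, 0.93 and 1.00 with HCD. All HCD ratios were below all RD ratios, by 0.27 on average (exact two-sided permutation p = 0.1, adjusted over 6 ratios 0.30). Suclg1 over Sucla2 was 0.40, 0.51 and 0.45 with RD and 0.29, 0.09 and 0.31 with HCD, a difference of -0.22 (exact p = 0.1, adjusted 0.30), again with no overlap. Idh3a over Idh3g was lower by 0.48 with HCD (exact p = 0.3), and Ogdh over Dlst differed by 0.02 (exact p = 1.0). No ratio passed the test, which cannot reach 0.05 with 3 livers a group.

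Pyruvate enters the mitochondrion through the carrier Mpc1 and Mpc2 and becomes acetyl-CoA by pyruvate dehydrogenase. Of the 6 genes of this step 1 was called, Mpc1, which was 23.1, 21.6 and 21.7 CPM with RD and 67.9, 37.2 and 64.8 CPM with HCD. All HCD livers were above all RD livers (means 22.1 ± 0.845 and 56.6 ± 16.9 CPM, SD, n = 3 each, log2 fold change 1.36, SE 0.22, adjusted p = 0.0228). The call was lost without RD replicate 1 (adjusted p = 0.112), RD replicate 2 (0.119), RD replicate 3 (0.0695) or HCD replicate 3 (0.0772). Mpc2 was 114, 118 and 126 CPM with RD and 279, 181 and 181 CPM with HCD (log2 fold change 0.84, adjusted p = 0.0540 in edgeR's test and 0.00112 in DESeq2's). The dehydrogenase subunits Pdha1, Pdhb, Dlat and Pdhx ranged from -0.31 (Pdhx, adjusted p = 0.441) to 0.20 (Pdhb). With a liver left out Pdhx was -0.49 to -0.16 and Pdhb 0.09 to 0.28. Of the 6 tested kinases, phosphatases and regulators of the dehydrogenase edgeR called 0, with 2 lower past 0.05 before adjustment, and DESeq2 called 1 lower. The highest, the kinase Pdk4 (1.32, adjusted p = 0.389), was high in HCD replicate 1 alone, at 41.2 CPM against 3.17 to 9.16 CPM elsewhere, and its log2 fold change was -0.43 without that liver.

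Markers of other cell types were measured in the same livers. The 10 Kupffer cell markers were all above 0 (median log2 fold change 0.84), 0 were called by edgeR, 5 passed 0.05 before adjustment and 4 were called by DESeq2, and their summed level was 168 to 277 CPM with RD and 230 to 506 CPM with HCD. The 5 tested red cell genes had a median of 2.28, with 4 above 0 and 1 below (Alas2, -0.70). Hba-a1 and Hbb-bs were called, and the summed level of the 5 was 138 to 239 CPM with RD and 177 to 468 CPM with HCD. Endothelial (0.24), stellate (0.49), cholangiocyte (0.60) and leukocyte (0.74) markers had medians above 0 with none called by edgeR or DESeq2, and 1 stellate marker passed 0.05 before adjustment. The 7 tested hepatocyte markers had a median of -0.25, with 5 of 7 below 0, and summed to 95823 to 126089 CPM with RD and 100809 to 139339 CPM with HCD, with 0 called by edgeR, 1 higher and 1 lower before adjustment and the same counts called by DESeq2. Of the pancreas, muscle and adipose lists only 1 gene each was tested, Cela1, Mylpf and Cidec, out of 8, 6 and 5 listed. Their levels were at most 26.1, 1.31 and 2.16 CPM in any liver, which does not cover the rest of those lists. The part of these markers in the cycle or chain values was not tested.

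The 5 genes whose levels over the 6 livers were most like the median of the 9 included Pus7, Ift46, Tex261 and Ube2q1, chosen among 8924 genes of at least 5 CPM. The root mean square difference was 0.02 for Pus7 and 0.04 for Ube2q1 on the log2 scale. The log2 fold changes of these named genes lay between -0.02 and 0.02. Without HCD replicate 1 the median of the 9 was 0.04 and the gap to the chain was -0.38, and none of the 9 was called.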

How the data were processed

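The authors deposited a table of raw read counts per gene and a table of FPKM (fragments scaled by exon length and library size) per gene and liver. The submitters' processing notes name STAR, HTSeq, DESeq2 and edgeR and the build GRCm39, without roles or versions. Gene lengths implied by the deposited counts and FPKM matched GENCODE M21 on GRCm38 within 0.1% for 94.8% to 95.0% of genes compared, so lengths and coordinates were taken from M21 (20653 of 20673 genes matched). Columns of the authors' own fold changes and p-values were not used. Strandedness of counting was not given in the sources used here.

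Counts were tested over 13105 genes with edgeR 4.0.16 (TMM factors, filterByExpr, quasi-likelihood test, Benjamini-Hochberg adjustment, called below 0.05). DESeq2 1.42.0, limma 3.58.1 on log2(FPKM + 1), other scalings and filters, a replicate block, a length trend removed by loess, and leaving out each liver were alternatives. Levels are CPM of the TMM-adjusted library. The biological coefficient of variation was 27.8% (common dispersion). R 4.3.3 and Python 3.11.15 were used, and the edgeR fit was tried on simulated counts. Counted reads were 13771630 to 23129576 per liver, and limits at 0 reads use 3 counts and cover counting error only.

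Named were the 9 members, the other cycle enzymes, every called gene and the extremes of related lists, the largest called rise in each respiratory complex, and the 5 genes most like the members. The members and lists were chosen with earlier results of these data known. Listed markers without a tested value are not analysed here. Single-gene values of some genes that this rule names are not reported here, and counts and medians include them.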

Additional observations from a re-analysis of the deposited data

How the results depend on the processing

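None of the 9 cycle genes was called under any of the 15 alternatives run, and 1 (Idh3g) passed at an unadjusted p of 0.05 or less, except with library sizes alone, without RD replicate 1 and without RD replicate 2, where 0 did. The number of genes called among all tested was 995 with DESeq2, 649 with no filter on low counts, 251 with the length trend removed and 2739 at an unadjusted p of 0.05 or less, against 428, and 36 to 335 with a liver left out, lowest without RD replicate 1 (36), RD replicate 2 (51), HCD replicate 3 (103) and RD replicate 3 (146). With library sizes alone the higher and lower calls were 158 and 161 against 255 and 173, the median of all genes moved to -0.06, and the median of the 9, which was then that of Cs, was -0.028. With a liver left out that median was -0.050 to 0.093. The gap between the 9 genes and the respiratory chain was -0.24 with the length trend removed and -0.52 to -0.38 with a liver left out. Signs turned, with no call, for Cs (-0.028) and Mdh2 (-0.014) with library sizes alone, for Cs without RD replicate 3 (-0.026) or HCD replicate 3 (-0.050), for Mdh2 without HCD replicate 3 (-0.039) and for Idh3a without RD replicate 1 (0.0084). With a liver left out Cs ranged from -0.050 to 0.11, Mdh2 from -0.039 to 0.11 and Idh3a from -0.27 to 0.0084. The causes were not tested. Deviations of livers with 1 replicate number had correlations of -0.08, 0.12 and -0.03, against -0.14 to 0.15 between other RD and HCD livers. Each diet was centered on its own 3 livers first, so these values cannot decide whether the numbers pair livers. With a replicate block 136 genes and none of the 9 were called, and the respiratory chain calls were 3 in place of 16. Mpc1 (adjusted p = 0.0504 in edgeR's test), Uqcr10 (0.0504) and Ndufa4 (0.0658) were not called with that block. With 3 livers a group, and p-values that measure their spread, differences smaller than the intervals given could not be seen.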

Other observations

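Around the cycle, of 18 tested genes that feed or drain it, such as pyruvate carboxylase and the aminotransferases, edgeR and DESeq2 called 0, while 1 higher gene passed 0.05 before adjustment, and the median log2 fold change was 0.07. They ranged from -0.34 (Gpt2, adjusted p = 0.360) to 0.50 (Gpt, adjusted p = 0.255), both alanine aminotransferases, and with a liver left out these were -0.46 to -0.19 and 0.34 to 0.71. Of 5 tested genes for cytosolic or NADP-linked enzymes that act on substrates of the cycle, Idh2, an NADP-linked isocitrate dehydrogenase, was highest at 0.75 (adjusted p = 0.188). It was 79.4, 80.3 and 77.4 CPM with RD and 204, 84.2 and 110 CPM with HCD, and 0.30 without HCD replicate 1, the liver with Xist reads. Acly, which splits citrate in the cytosol, was lowest at -1.14 (adjusted p = 0.0676 in edgeR's test and 0.000184 in DESeq2's). RD replicate 3 was at 386 CPM against 178 and 218 CPM in the other RD livers, and the value was -0.74 without it. The 10 genes for cofactors and assembly had a median of -0.16, from -0.34 (Sdhaf1, adjusted p = 0.683; -0.02 without HCD replicate 3) to 0.65 (Lipt2, adjusted p = 0.334; 0.42 without RD replicate 3), with 0 called by edgeR or DESeq2 and 0 past 0.05 before adjustment.

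Of 14 genes for regulators of mitochondrial gene expression 12 were above 0, with a median of 0.16. edgeR called 0 of them, 2 higher ones passed 0.05 before adjustment, and DESeq2 called 1. Esrrg, an orphan nuclear receptor, was highest: it had 0.825 ± 0.209 CPM with RD and 2.74 ± 0.314 CPM with HCD (SD, n = 3 each), a log2 fold change of 1.72 (adjusted p = 0.0661 in edgeR's test and 0.0353 in DESeq2's). Pprc1, a coactivator, was lowest at -0.65 (adjusted p = 0.314), and was -0.33 without RD replicate 2. Pdpr, a regulator of pyruvate dehydrogenase phosphatase, had -0.98 (adjusted p = 0.0592 in edgeR's test and 0.0115 in DESeq2's).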
